A study of Mus musculus with 3 samples.

Results

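Solute carriers are the membrane proteins that move sugars, amino acids, ions, metals, nucleosides and metabolites across the plasma membrane and the inner membranes of cells. They were followed here in mouse ovarian surface epithelium, the single layer of cells that covers the ovary, as it took on a mesenchymal phenotype in culture. Members were all probes whose gene name in the array file of culture 1 with mesenchymal RNA in Cy5 was Slc followed by a digit. The rule gave 97 of 20371 non-control probes, which carried 79 gene names in 31 Slc families. Matching by gene ID to RefSeq gave 8 of the probes another current symbol, and the current symbols are used below. The probe named Slc39a1 belongs to Slc40a1, the iron exporter ferroportin, and is therefore not counted with the zinc transporters. The probe named Slc1a7 belongs to Slc1a5, the names Slc23a1 and Slc23a2 are exchanged, and the Slc21 names belong to the Slco genes. The probes of Slc4a1ap and Slc9a3r1 meet the rule by name, but these genes encode adaptor proteins and no carrier, and they are described apart.

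Cells were primary cultures from superovulated virgin female C57/Bl6 mice, and the labels name no genetic change. Each of 3 cultures was divided. The mesenchymal cells had been held in 15% fetal bovine serum for 1 week, and the epithelial cells of the same culture were kept in 2.5% serum. The RNAs from a culture shared 2 Agilent 2-colour arrays with exchanged dyes, which made 6 arrays and n = 3 cultures. Serum and phenotype changed together, so their effects cannot be told apart, and no group had only one of them. Whether the mice of a culture were pooled is not given in the labels.

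A carrier sets which way and how fast its substrate crosses a membrane, and the families differ in what drives them. Facilitative carriers such as the glucose transporters of family 2 let a sugar follow its gradient, while the sodium-coupled carriers of families 1, 6 and 38 and the phosphate carriers of family 20 use the ion gradient made by the sodium pump. Family 25 sits in the inner mitochondrial membrane and exchanges metabolites between mitochondria and cytosol, and families 30, 39 and 40 keep zinc and iron in balance.

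Values are differences on the log2 scale, mesenchymal over epithelial RNA, unless a level is named. A positive ratio means more RNA in the mesenchymal cells. Each culture's value is the mean of its 2 dye-swapped arrays, errors are SDs over cultures, and p-values are limma's, adjusted by Benjamini-Hochberg over the 20185 probes tested, with a threshold of 0.05. In bulk RNA, fewer cells of a type and less RNA per cell cannot be told apart. Of the genes known to mark the ovarian surface epithelium and mesothelium, 0 of 7 measured were higher in mesenchymal cells and 6 were lower, with ratios from -0.32 for Krt8 to -2.98 for Gpm6a. None of 5 theca, 3 endothelial and 3 leukocyte genes measured passed in limma's test (1, 2 and 0 at an unadjusted p under 0.05), Inhbb at -0.64 was the 1 granulosa gene of 6 that passed, and Acta2 at -1.19 the 1 smooth muscle gene of 4. Saturation in epithelial RNA compressed the ratios of Acta2, on 5 arrays, and of the epithelial markers Krt7, on 6, and Krt19, on 2. Krt8 was saturated on 3 arrays in each RNA, which compressed its ratio too. Whether any change in cell makeup has a part in the carrier values was not tested.

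Of the 97 probes, 96 were tested, 76 of them in 3 cultures and 20 in 2. The other probe, one of the pair for Slc38a4, was measured in culture 1 alone. Mesenchymal cells had more RNA of 10 members and less of 6, and these 16 probes stood for 16 genes. That is 16.7% of the tested members, where 11.3% of all tested probes passed, 5.6% higher and 5.66% lower. The members' median ratio was -0.010 and that of all tested probes -0.003, and 75 of the 96 members, 78.1%, lay within 0.25 of 0, as did 79.1% of all tested probes. Past 2-fold were 4 members, Slc1a3, Slc2a3 and Slc1a5 lower and Slco3a1 higher, where 1.75% of all tested probes were called and at least 2-fold changed.

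**Figure D1:**
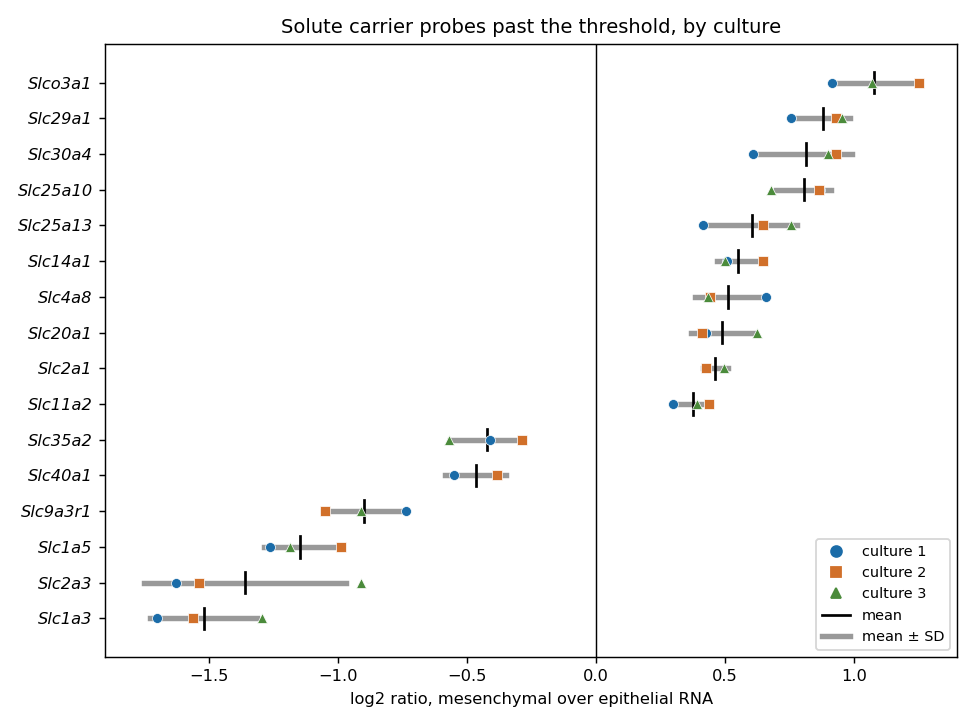
Log2 ratio of mesenchymal over epithelial RNA (horizontal axis) for the 16 solute carrier probes with an adjusted p under 0.05, with 1 point per culture, the mean as a black tick and mean ± SD as a grey bar. Slco3a1 stands highest at 1.08 and Slc1a3 lowest at -1.52, and for every probe the measured cultures lie on one side of 0.

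The promoters of the carriers that moved are shown because 4 of the higher genes share a short run of letters. RefSeq windows of GRCm38.p6, taken as the 250 bases before each annotated start, were at hand for 57 of the 79 genes, in 81 windows. The run NACGTG, which the E-box and the hypoxia response element can contain, was searched on both strands and is in capitals. The genes shown were chosen after their values were seen, and so was the motif that is marked, out of 5 that were searched. The windows of Slc20a1 (chr2:129198523-129198772, plus strand), Slc25a13 (chr6:6217174-6217423, minus strand) and Slc2a1 (chr4:119108495-119108744, plus strand), all higher in mesenchymal cells, hold it. The window of Slc1a3 (chr15:8710808-8711057, minus strand), the member with the lowest ratio, holds none. Nor do the windows of Slc25a10, Slc30a4 and Slc4a8, which were also higher in mesenchymal cells and are not shown. The ratios of 2 genes shown as higher followed the dye. With mesenchymal RNA in Cy5 and in Cy3, Slc20a1 averaged -0.011 and 0.987, and Slc2a1 -1.285 and 1.864.
Slc20a1: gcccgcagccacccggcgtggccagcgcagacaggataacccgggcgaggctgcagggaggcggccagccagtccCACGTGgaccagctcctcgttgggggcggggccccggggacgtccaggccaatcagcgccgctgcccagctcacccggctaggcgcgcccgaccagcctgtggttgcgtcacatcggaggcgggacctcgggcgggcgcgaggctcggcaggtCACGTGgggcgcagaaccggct
Slc25a13: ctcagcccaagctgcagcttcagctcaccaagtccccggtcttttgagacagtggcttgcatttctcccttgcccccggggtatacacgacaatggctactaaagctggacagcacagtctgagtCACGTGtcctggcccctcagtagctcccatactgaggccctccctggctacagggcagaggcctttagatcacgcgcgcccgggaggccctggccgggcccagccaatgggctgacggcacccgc
Slc2a1: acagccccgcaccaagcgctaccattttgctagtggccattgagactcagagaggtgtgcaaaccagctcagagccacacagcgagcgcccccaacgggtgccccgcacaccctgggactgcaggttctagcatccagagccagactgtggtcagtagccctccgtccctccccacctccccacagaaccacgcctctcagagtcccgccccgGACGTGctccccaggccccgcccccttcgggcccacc
Slc1a3: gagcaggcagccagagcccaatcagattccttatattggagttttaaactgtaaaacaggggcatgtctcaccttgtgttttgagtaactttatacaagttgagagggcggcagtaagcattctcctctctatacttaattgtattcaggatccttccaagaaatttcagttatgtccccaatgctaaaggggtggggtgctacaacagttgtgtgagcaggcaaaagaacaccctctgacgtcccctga

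In Slc20a1 the run stands 175 and 22 bases before the start, in Slc25a13 125 and in Slc2a1 37 bases before it. It was found in 17 of the members' 81 windows, or 20.99%, and in 16.5% of all 32851 windows. Of the 15 windows of higher members, which come from 7 genes, 6 hold it, and 3 of these are among the 8 overlapping or neighbouring windows of Slc29a1. None of the 3 windows of lower members, which come from 3 of the 6 lower genes, holds it. The palindrome CACGTG, which overlaps NACGTG, was in 11.1% of the members' windows and 6.02% of all windows. The antioxidant response core TGACNNNGC was in 9.88% against 10.2%, and the metal response core TGCNCNC, searched with its letters loosened, in 49.4% against 44.4%. The amino acid response core TGATGNAAT was in 0 of the 81 windows and 0.82% of all. A match is a run of letters and not a site, and its absence says only that these letters are not in the window.

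Of 7 tested sugar probes 2 passed, or 28.6%, where 11.3% of all tested probes did. They were 1 lower and 1 higher, and the higher one, Slc2a1, had a ratio that followed the dye. Slc2a3, the high-affinity glucose transporter best known from neurons, was lower in mesenchymal cells, with ratios of -1.63, -1.54 and -0.91 in cultures 1, 2 and 3. The level fell on all 6 arrays, and culture 3 had the smallest change. Normalised log2 levels were 10.03, 9.64 and 8.49 in mesenchymal RNA, against 11.66, 11.18 and 9.40 in epithelial RNA, so culture 3 was the dimmest in both. The mean was -1.36 ± 0.39 (SD, n = 3), a 2.56-fold lower value, with an adjusted p of 0.00355.

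Slc2a1, the widespread basal glucose transporter, was higher by 0.43 and 0.50 in cultures 2 and 3, and culture 1 had no value because 1 of its spots was outlier-flagged. The mean of 0.46 ± 0.05 (SD, n = 2) had an adjusted p of 0.0388. This probe's ratio followed the dye: it averaged -1.28 with mesenchymal RNA in Cy5 and 1.86 with mesenchymal RNA in Cy3, and only 3 of its 5 measured arrays were above 0. Its dye effect over cultures 2 and 3, the Cy5 ratio minus the Cy3 ratio divided by 2, was -1.75, larger in size than the ratio itself. The call was lost under 4 of 12 other settings, with an adjusted p of 0.536 and a ratio of 0.25 when all arrays were fitted singly with the culture as a replicate block. The other 5 sugar members did not pass, among them the insulin-responsive Slc2a4 at -0.01 and the fructose transporter Slc2a5 at 0.06. Slc2a10 gave -0.26, -0.26 and -0.17, close together in the 3 cultures, with an adjusted p of 0.0983. Of 12 measured genes of glucose handling and glycolysis, Gapdh, Pgam1, Pgk1, Ldha and Aldoa were saturated in both RNAs on 5 or 6 of 6 arrays and Gpi1 in epithelial RNA on 5, which compresses their ratios. Hk1, a hexokinase, was the 1 that passed, at 0.94 ± 0.09 (SD, n = 3, adjusted p = 0.00123).

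Of 15 tested amino acid member probes 2 passed, or 13.3%, where 11.3% of all tested probes did, and both were lower in mesenchymal cells. Amino acid carriers listed under other names went both ways, with Slc36a1 higher at 0.97 and Slc7a1 lower at -1.04, as given below. Slc1a3, a sodium-coupled glutamate and aspartate carrier known from astrocytes, had ratios of -1.70, -1.56 and -1.30. Its log2 levels were 9.50, 9.54 and 9.33 in mesenchymal RNA, against 11.21, 11.11 and 10.63 in epithelial RNA, and the groups did not overlap. The mean of -1.52 ± 0.21 (SD, n = 3) is a 2.87-fold lower value and the largest change of any member, with an adjusted p of 0.00062.

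Slc1a5, which exchanges glutamine and other neutral amino acids, gave -1.26, -0.99 and -1.18. All 6 arrays were below 0. The mesenchymal log2 levels of 13.87, 13.72 and 13.95 lay under the epithelial 15.14, 14.71 and 15.14, and the mean of -1.14 ± 0.14 (SD, n = 3) was 2.21-fold lower, with an adjusted p of 0.00093. Slc3a2, the heavy chain that carries several family 7 light chains to the cell surface, had -0.19, -1.37 and -1.29, a mean of -0.95 ± 0.66 (SD, n = 3). Cultures 2 and 3 were far below 0 and culture 1 was near it. Its adjusted p of 0.052 missed the threshold, and it passed under 8 of 13 other settings.

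The other amino acid members did not pass. Slc6a6, the taurine carrier, was measured by 4 probes with ratios from 0.03 to 0.13. The cationic amino acid carriers Slc7a2 and Slc7a3 and the light chains Slc7a7 and Slc7a8 lay between -0.08 and 0.11, and Slc38a1 and Slc38a3, system A and N carriers of glutamine, at 0.10 and -0.01, with -0.13 on a Slc38a1 probe listed under another name. For Slc38a4 the tested probe had -0.17 in 2 cultures and the untested one -0.55 in 1. Among 15 measured genes of the ATF4 amino acid response, a programme of enzymes and regulators switched on when amino acids run short, 0 were higher and 10 lower in mesenchymal cells, with a median of -0.85. They include Cth at -2.39 ± 0.06, an enzyme that makes cysteine, and Trib3 at -2.21 ± 0.07, a pseudokinase (SD, n = 3 each, adjusted p = 0.000116 and 0.000123). Atf4 itself had -0.31 with an adjusted p of 0.111, but in epithelial RNA its spot was saturated on 6 of 6 arrays, which compresses the ratio. Aars and Psat1, also not called, were saturated on 4 arrays in mesenchymal RNA and on 6 and 5 in epithelial RNA.

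**Figure D2:**
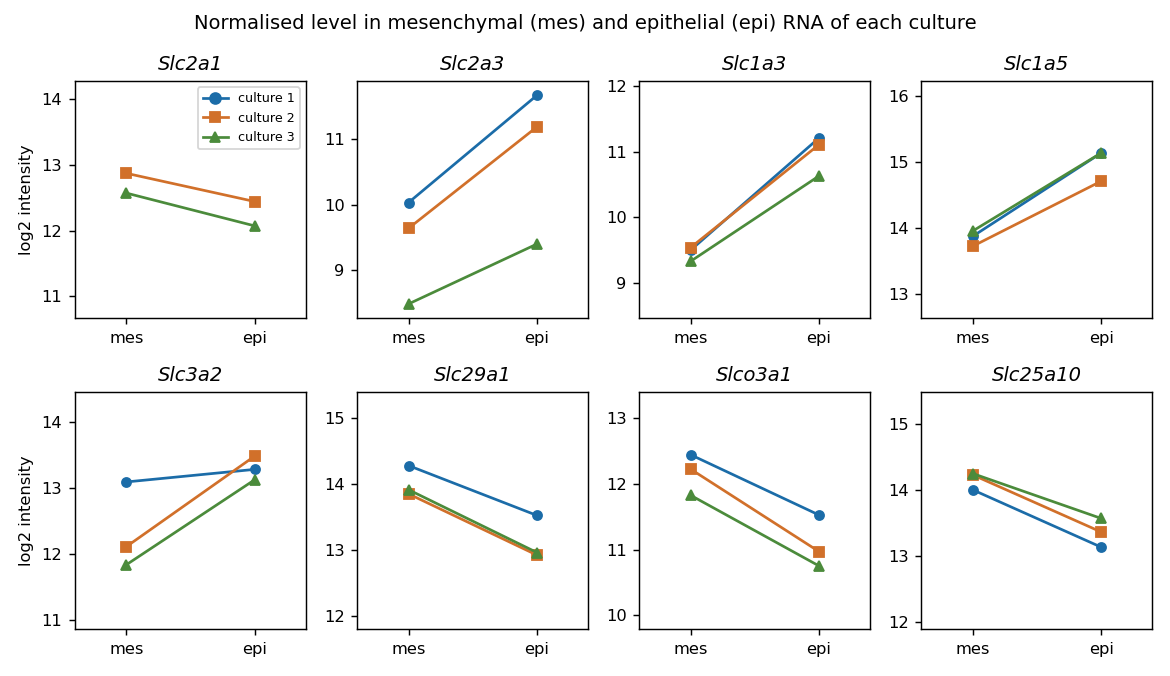
Normalised log2 intensity in mesenchymal (mes) and epithelial (epi) RNA for 8 members, with 1 line per culture and the same axis span in every panel. Slc2a3, Slc1a3 and Slc1a5 slope up towards epithelial RNA in every culture, Slc3a2 is nearly level in culture 1, and Slc29a1, Slco3a1 and Slc25a10 slope down.

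Among the ion members, 2 of 21 tested probes were higher and 0 lower, or 9.52% called, where 11.3% of all tested probes passed. Slc4a8, a sodium-driven bicarbonate exchanger that raises the pH of the cell, had 0.66, 0.44 and 0.43, above 0 on all 6 arrays, and its mean was 0.51 ± 0.13 (SD, n = 3, adjusted p = 0.0121). Its second probe gave 0.12 and did not pass, so the gene's probes disagree. Slc20a1, a sodium-phosphate carrier, had 0.43, 0.41 and 0.63. The mean was 0.49 ± 0.12 (SD, n = 3, adjusted p = 0.0134), but by dye it was -0.01 with mesenchymal RNA in Cy5 and 0.99 with it in Cy3.

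The remaining ion carriers gave no call. Slc12a7, a potassium-chloride carrier, had 1.32 in culture 1 and 0.47 in culture 3 on one probe, a mean of 0.90 ± 0.60 (SD, n = 2, adjusted p = 0.0621), and 0.01 on the other. Slc12a2, the sodium-potassium-chloride carrier, was at -0.07 with opposite signs by dye, -1.38 with mesenchymal RNA in Cy5 and 1.31 with it in Cy3. The brightest ion member, Slc12a4, was at -0.17, and of the 6 measured genes of the sodium pump 0 passed in limma in either direction (1 at an unadjusted p under 0.05), with ratios from -0.32 to 0.10.

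Of 13 tested mitochondrial probes 2 passed, or 15.4%, where 11.3% of all tested probes did, and both were higher in mesenchymal cells. Slc25a10 exchanges dicarboxylates such as malate for phosphate, and its ratios were 0.87, 0.87 and 0.68. Log2 levels were 14.003, 14.23 and 14.25 in mesenchymal RNA, against 13.13, 13.36 and 13.57 in epithelial RNA, with no overlap. The mean was 0.81 ± 0.11 (SD, n = 3, adjusted p = 0.00227), while the gene's other probe, brighter, gave 0.09 with an adjusted p of 0.703. Slc25a13, the aspartate-glutamate carrier of the malate-aspartate shuttle, had 0.42, 0.65 and 0.75, all above 0, with a mean of 0.61 ± 0.17 (SD, n = 3, adjusted p = 0.00995). Its close relative Slc25a12 was at -0.04. The brightest member of all, the ADP/ATP carrier Slc25a5, was at -0.05 ± 0.08, and the phosphate carrier Slc25a3 at 0.11 ± 0.20 (SD, n = 3 each). Spots of Slc25a5 were saturated on 4 arrays in mesenchymal and 5 in epithelial RNA and those of Slc25a3 on 3 in each, which compresses both ratios. Slc25a20, the carnitine-acylcarnitine carrier, was at -0.06 in 2 cultures, with -0.38 in culture 1 and 0.25 in culture 2. The ratios of Slc25a3 and Slc25a20 followed the dye. With mesenchymal RNA in Cy5 they averaged -1.408 and -1.775, and with it in Cy3 1.632 and 1.773. Of 8 genes of carnitine and fatty acid use, Acsl3 at 0.50 and Fabp4 at 0.58 were higher. Acsl3 had 3 arrays above and 3 below 0, and its dye effect of -0.89 was larger in size than its ratio.

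**Figure D3:**
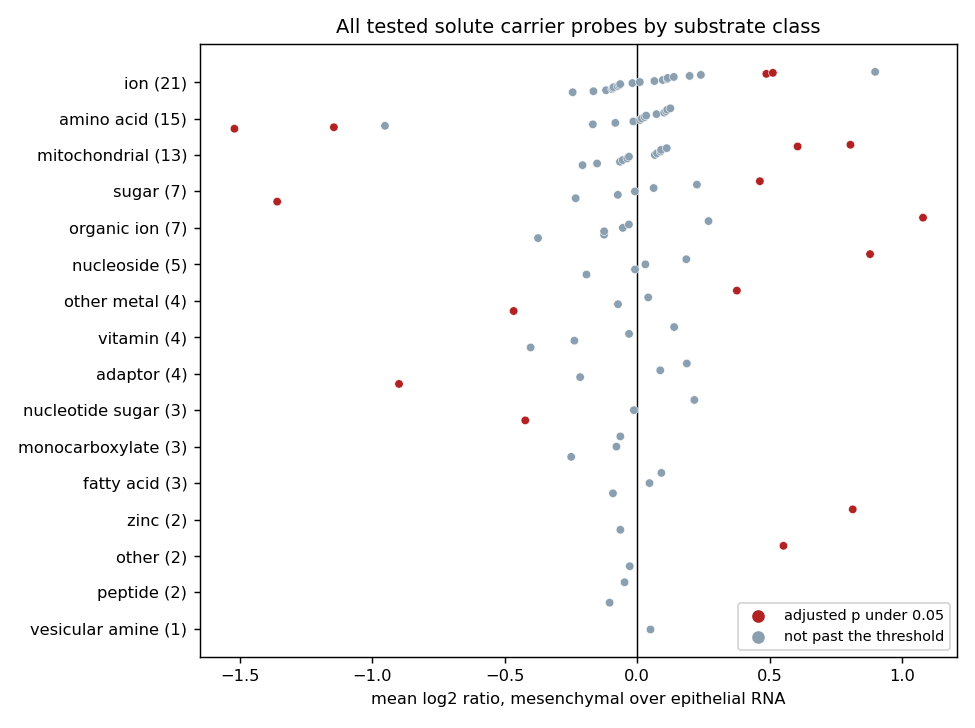
Mean log2 ratio of mesenchymal over epithelial RNA (horizontal axis) for each of the 96 tested probes, 1 point each, by substrate class with the number of probes in brackets; points past the threshold are red. Most points lie near 0 in every class, both red amino acid points are below -1, and both red mitochondrial and both red ion points are above 0.

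Among the member probes, metal carriers moved in single genes, and those listed under other names are given below. Slc30a4, which carries zinc out of the cytosol into vesicles, had 0.61, 0.93 and 0.90. Every culture was above 0, but the 3 arrays with mesenchymal RNA in Cy3 averaged 1.75 and the 3 others -0.12, and the mean was 0.81 ± 0.18 (SD, n = 3, adjusted p = 0.00381). The other zinc member, Slc30a3, was at -0.06 and did not pass. Mt1, a zinc-binding metallothionein, was at 1.81 ± 0.19 (SD, n = 3, adjusted p = 0.000336), with its spot saturated in mesenchymal RNA on all 6 arrays, and Mtf1, the zinc-sensing factor, at 0.10.

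The called members for iron uptake and export had opposite signs, but both ratios were small with mesenchymal RNA in Cy3. Slc11a2, which brings iron into the cytosol, was higher with 0.30, 0.44 and 0.39, a mean of 0.38 ± 0.07 (SD, n = 3, adjusted p = 0.0237), above 0 on 5 of 6 arrays. Slc40a1, the exporter, was lower with -0.55 and -0.38 in cultures 1 and 2, a mean of -0.47 ± 0.12 (SD, n = 2, adjusted p = 0.0455), below 0 on 4 of 5 arrays. With mesenchymal RNA in Cy5, Slc11a2 averaged 0.70 and Slc40a1 -0.83, and with it in Cy3 they averaged 0.05 and -0.13. Of 7 iron handling genes, 1 passed: Tfrc, the transferrin receptor, at 1.03 ± 0.18 (SD, n = 3, adjusted p = 0.0017), with 3 arrays above and 3 below 0. The ferritin chains Fth1 and Ftl1 were at -0.04 and -0.02 with saturated spots. The copper carrier Slc31a1 gave -0.07 and 0.04 on its 2 probes. Both followed the dye, with -1.07 and -1.10 for mesenchymal RNA in Cy5 and 0.92 and 1.18 for it in Cy3.

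The largest rise among member probes was that of Slco3a1, a carrier of organic anions that include prostaglandins. It had 0.91, 1.25 and 1.07, above 0 on all 6 arrays. The mesenchymal log2 levels were 12.44, 12.22 and 11.82 and the epithelial ones 11.53, 10.97 and 10.75, and the mean of 1.08 ± 0.17 (SD, n = 3) was 2.11-fold higher, with an adjusted p of 0.00135. A second Slco3a1 probe, listed under another name, gave 0.28 with an adjusted p of 0.152 and 4 of 6 arrays above 0, so the gene's probes disagree. The 6 other organic ion members did not pass, including the prostaglandin carrier Slco2a1 at -0.03 and the carnitine carrier Slc22a5 at -0.37 ± 0.32 (SD, n = 3). Slco4a1 had 0.14, 0.34 and 0.32, with an adjusted p of 0.0848.

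Slc29a1, the equilibrative nucleoside transporter that takes up adenosine, had 0.76, 0.93 and 0.95. All cultures and arrays were above 0. Log2 levels were 14.28, 13.85 and 13.91 in mesenchymal RNA, against 13.52, 12.92 and 12.96 in epithelial RNA, and the mean of 0.88 ± 0.11 (SD, n = 3) was 1.84-fold higher, with an adjusted p of 0.0017. Its relative Slc29a2 was at -0.19 and did not pass. Slc14a1, a urea carrier, had 0.51, 0.65 and 0.50, a mean of 0.55 ± 0.08 (SD, n = 3, adjusted p = 0.00678), above 0 on every array. A second Slc14a1 probe, listed under another name, gave 0.30 on 6 of 6 arrays above 0 and missed the threshold with an adjusted p of 0.0569.

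Slc35a2, which brings UDP-galactose into the Golgi, was lower with -0.41, -0.29 and -0.57, a mean of -0.42 ± 0.14 (SD, n = 3, adjusted p = 0.0259). All 6 arrays were below 0, but the gene's brighter probe gave -0.01. Slc35a1, the CMP-sialic acid carrier, was at 0.22 and did not pass. Among family 35 probes listed under other names, Slc35b2 at 0.74, Slc35e4 at 0.66 and Slc35f6 at 0.56 passed and were higher. Slc35f6 had 4 arrays above and 2 below 0. The remaining family 35 probes listed under other names did not pass. Among the vitamin carriers 0 of 4 passed in limma (2 at an unadjusted p under 0.05): the folate carrier Slc19a1 had -0.41 and -0.39 in cultures 2 and 3, with an adjusted p of 0.056, the brightest was Slc23a1 at 0.14, a vitamin C carrier, and its relative Slc23a2 was at -0.03.

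No member passed in the monocarboxylate, fatty acid, peptide and vesicular amine classes, which hold 3, 3, 2 and 1 tested probes, and at an unadjusted limma p under 0.05 only 1 of these, a monocarboxylate probe, did. Slc16a1, the lactate carrier of most tissues, had -0.09, -0.43 and -0.22 in cultures 1, 2 and 3, with an adjusted p of 0.15. Bsg and Emb, the chaperones of the lactate carriers, were at 0.03 and 0.24 and did not pass (1 at an unadjusted p under 0.05). The fatty acid carrier Slc27a4 gave 0.09 and -0.09 on 2 probes, the peptide carrier Slc15a2 -0.05 and -0.10, and the vesicular amine carrier Slc18a1 0.05. Slc33a1, the acetyl-CoA carrier of the endoplasmic reticulum, was at -0.03.

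Of the 2 adaptor genes, Slc9a3r1, a scaffold that links membrane proteins to the actin cytoskeleton through ezrin, was lower with -0.73, -1.05 and -0.91, a mean of -0.90 ± 0.16 (SD, n = 3, adjusted p = 0.00229). All 6 arrays were below 0, and its spot was saturated in epithelial RNA on 5 of them. The 3 probes of Slc4a1ap ranged from -0.22 to 0.19 and did not pass.

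Of the 15 genes with more than 1 member probe, 10 had gaps between probes that round to 0.38 or less. The gap of 0.38 was that of Slc38a4, whose probe at -0.55 was untested and measured in culture 1 alone. The widest gaps were 0.89 for Slc12a7, 0.72 for Slc25a10, 0.41 for Slc35a2 and 0.40 for Slc4a1ap and Slc4a8. The Slc12a7 probe near 0 was dim, with a mean log2 intensity of 7.61 against 11.29, and ratios of dim probes are shrunk. The other Slc12a7 probe was measured in 2 cultures, with an SD of 0.60. In each of Slc25a10, Slc35a2 and Slc4a8 the dimmer probe passed and the brighter did not. Which transcripts the probes read was not tested.

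**Figure D4:**
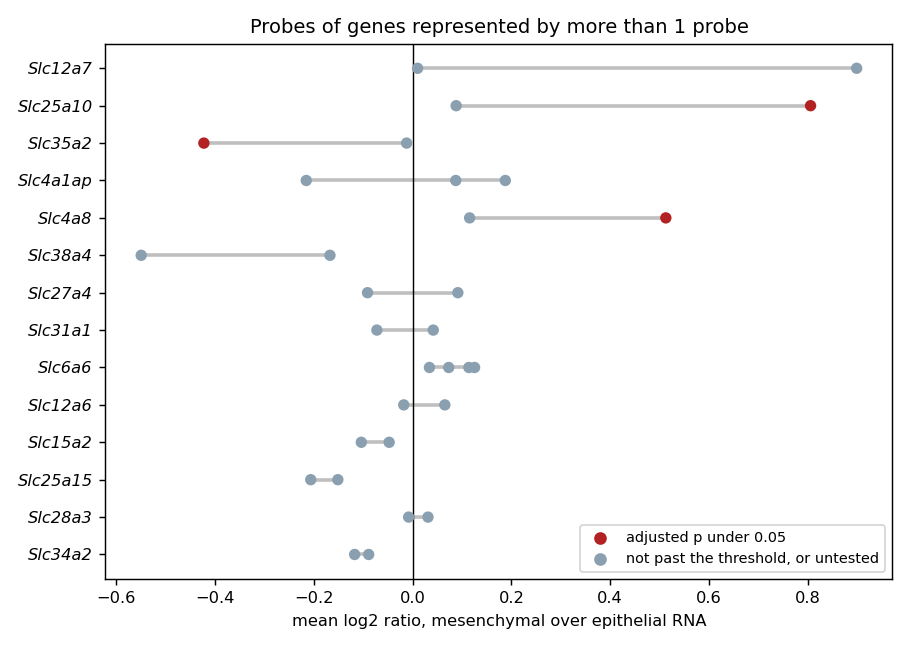
Mean log2 ratio of mesenchymal over epithelial RNA for each probe of 14 of the 15 genes with more than 1 probe, joined by a grey bar, with probes past the threshold in red. Slc12a7 and Slc25a10 show the widest gaps, 0.89 and 0.72, and the 4 probes of Slc6a6 lie together near 0.

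Dye effects were common in members and in all probes alike. The dye effect, the difference between orientations divided by 2, passed its own test in 61 of 96 members, 63.5%, where 57.7% of all tested probes had one. It was larger in size than the ratio in 64 members, or 66.7%, and in 70.5% of all tested probes. Of the 16 called members, 11 had the same sign on every measured array, or 68.8%, near the 64.6% of all called probes. They are 11.5% of the tested members, where 7.27% of all tested probes were both called and of one sign. The others were Slc2a1, Slc20a1, Slc30a4, Slc11a2 and Slc40a1. Averaging both orientations removes an additive dye effect, and whether any of it remains was not tested.

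**Figure D5:**
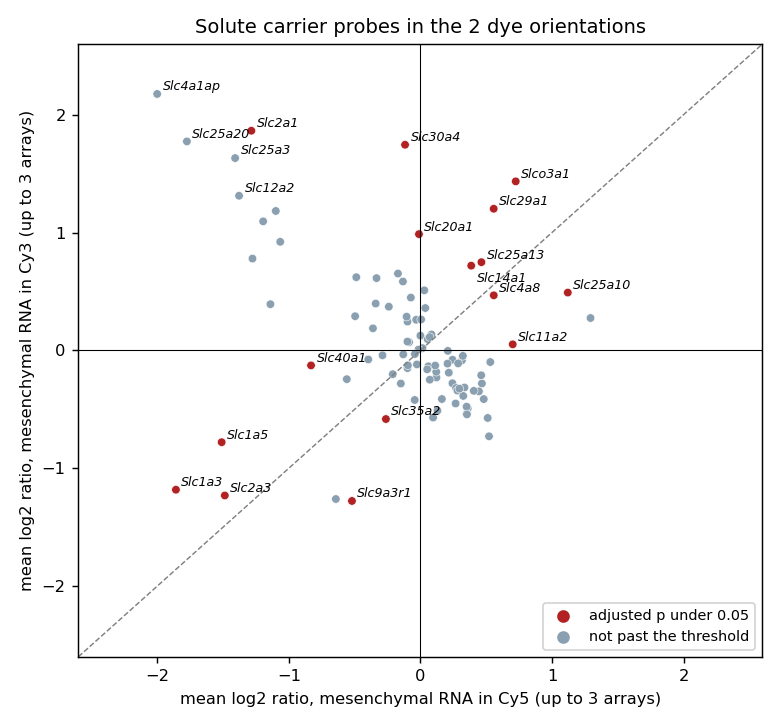
Mean log2 ratio of mesenchymal over epithelial RNA on the arrays with mesenchymal RNA in Cy5 (horizontal axis) and in Cy3 (vertical axis), 1 point per tested probe, with the line of equality dashed and called probes in red. Slc2a1 lies at -1.28 and 1.86, far from the line, while Slc1a3, Slc2a3 and Slc1a5 are below 0 on both axes.

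Cultures 2 and 3 were more alike than either was to culture 1. Over the members the correlation of ratios was 0.92 between cultures 2 and 3, 0.64 between 1 and 2 and 0.73 between 1 and 3, across 80, 90 and 78 probes that share arrays and are not independent. Over all probes the values were 0.88, 0.59 and 0.63. Slc3a2, Slco4a1, Slc2a8 and 1 probe of Slc4a1ap were among the members on which culture 1 lay apart from the others. Without culture 1 the count was 36 of 80 tested members, 45%, Slc3a2 at -1.33 among them, where 32.3% of all tested probes passed. It was 13 of 78, 16.7%, without culture 2, against 6.41% of all probes, and Slc35a2 and Slc11a2 no longer passed. It was 8 of 90, 8.89%, without culture 3, against 4.2% of all probes, when Slc35a2, Slc20a1, Slc14a1, Slc40a1, Slc25a13, Slc4a8 and Slc11a2 no longer passed. Slc40a1 had no value in culture 3, so its ratio stayed the same and only its test changed.

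Carriers that the array file lists under other names, found by their current symbol, gave 16 called of 104 tested probes, 8 higher and 8 lower. That is 15.4%, where 11.3% of all tested probes passed. The lowest was Slc7a1, a cationic amino acid carrier, with -1.08, -1.01 and -1.03 and a mean of -1.04 ± 0.04 (SD, n = 3, adjusted p = 0.000714). The lactate exporter Slc16a3 was at -0.87 ± 0.16 and the zinc and manganese importer Slc39a8 at -0.83 ± 0.11 (SD, n = 3 each). Slc36a1, which moves small amino acids out of lysosomes, was the highest at 0.97 ± 0.13, and Slc39a10, a zinc importer, had 0.57 and 0.55 on 2 probes that passed and 0.10 and 0.06 on 2 that did not. Of the remaining zinc and metal carriers found this way, Slc39a6 was higher at 0.35 ± 0.08 (SD, n = 3, adjusted p = 0.0328). Slc48a1 was lower at -0.64 ± 0.40 (SD, n = 3, adjusted p = 0.0476), with -0.18, -0.91 and -0.83 in cultures 1, 2 and 3. Slc39a7 had -0.35 on a probe that passed and -0.08 on another that did not. Slc38a2, a system A carrier, gave 0.22 and -0.05 and did not pass. Of the ABC transporters, the pumps that use ATP, 4 of 21 measured genes were higher and 3 lower. At the ends were Abcc3 at 1.96, measured in 2 cultures, and Tap2 at -0.83. Among 8 genes of glutathione synthesis and the antioxidant response, 3 were higher, Gss at 0.59, Nqo1 at 0.60 and Hmox1 at 0.56. Nqo1 had an SD of 0.37 and an adjusted p of 0.048 in limma's test. Gsr was lower at -0.38. Gsr had 2 arrays above and 4 below 0, and a dye effect of -0.495, larger in size than its ratio.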

How the data were processed

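The deposited scanner files are Agilent Feature Extraction output, and per the file headers the intensity columns used hold each spot's mean and its local background. The log10 ratios deposited by the authors were computed by that software, and limma is named, without a version, in the submitters' processing notes. Since each RNA carries both dyes in the labels, orientation rests on the deposited array names. Other deposited flags and spot columns were used to filter. Intensities were corrected with normexp (offset 50), which shrinks ratios of dim probes, then normalised by within-array loess (limma 3.58.1, R 4.3.3). Ratios were set to mesenchymal over epithelial, and each culture's 2 dye-swapped arrays were averaged. A culture had a value only if both spots were free of outlier flags. A probe was tested if 1 RNA was well above background on at least 4 arrays (43 probes removed) and at least 2 cultures had a value (143 removed). The test was lmFit and eBayes of the ratio against 0. The ratios correlate with the authors' value table at 0.987 to 0.994. Levels were taken after Aquantile scaling. The number of arrays, 6 from 3 cultures, limits the precision, and saturated spots were kept, which compresses their ratios.

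Outlier flags numbered 61 to 1639 per array (1 to 14 among members), most on culture 3 with mesenchymal RNA in Cy3, whose file uses another annotation, giving 25 members another gene name. Negative controls were well above background in 18.5% to 81.5%, so that filter is weak.

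Members and gene lists were chosen with earlier results of these data known. Every called member was named, as were a fixed set of major carriers, the 2 brightest members of classes with few calls and up to 4 called genes of other lists. Of the fixed set, Slc7a5, Slc7a11, Slc30a1, Slc25a4 and the zinc importer Slc39a1 were not found among the named probes. Substrate classes by current symbol, the adaptor class, the promoter window and the genes drawn by level were set after values were seen. Gene lists used each gene's brightest tested probe. The fit was checked on simulated ratios. A first simulation, with each probe's own spread over cultures, recovered few small changes, and a second, made after it with limma's moderated spread, recovered most, so how often changes of the size of most called members are missed depends on the spread assumed. Alternatives covered background, normalisation, filters, variance model, single orientations and left-out cultures. Single-gene alternatives were followed for the called members and Slc3a2, Slc12a2, Slc16a1 and Slc25a5. Some members are counted but not reported here by name.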

Additional observations from a re-analysis of the deposited data

How the results depend on the processing

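The 16 called members became 44 with only the arrays that had mesenchymal RNA in Cy5 and 39 with only those in Cy3, where a dye effect cannot cancel. They became 10 at an adjusted p under 0.01 and 4 when 2-fold was required beside an adjusted p under 0.05, and ranged from 8 to 36 when 1 culture was left out. Of all probes, 2272 passed, against 8211 and 6898 for single orientations, 963 and 353 for the stricter thresholds and 809 to 5875 with 1 culture left out. With mesenchymal RNA in Cy5 only, the sign turned for Slc20a1 (-0.0109), Slc2a1 (-1.28), Slc30a4 (-0.12) and Slc25a5 (0.0516), and with it in Cy3 only for Slc12a2 (1.31) and Slc16a1 (0.78). The cause was not tested. Slc2a1 also lost its call with median centring (0.42), with outlier-flagged spots kept (0.36), with trend and robust variance and with all arrays fitted under a replicate block (0.25), and Slc40a1 did so without background subtraction (-0.43). Slc1a3, Slc1a5, Slc2a3, Slc29a1, Slco3a1 and Slc9a3r1 kept direction and call at an adjusted p under 0.05 under each of the other processing and left-out-culture alternatives in which they were tested, while Slc29a1 and Slc9a3r1 are under 2-fold. So did the called probe of Slc25a10, but with 1 probe per gene the brighter probe stands for that gene and was not called (0.09). With 2 cultures, variance rests on 1 degree of freedom per probe. The main test is itself paired, since each value is a ratio within 1 culture; the fit of all arrays with a replicate block changed 1 called member, Slc2a1 (0.25), and added 2.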
